A study of Mus musculus with 42 samples.

Results

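Long intergenic non-coding RNAs (lincRNAs) are transcripts from genes that lie between protein-coding genes and are not annotated as encoding a protein. The 91 lincRNAs described here are the well-covered ones of adult mouse brain. They were taken from the deposited table of a brain ribosome footprinting experiment, as genes with the biotype lincRNA and a mean signal of at least 50 over the 3 wild-type (WT) input libraries, without AY036118. The table holds 50765 genes, of which 5499 are lincRNAs. Signal here means reads divided by a factor for the library, with no division by transcript length, so levels are compared between samples and not between genes. The set was thus chosen by the WT input signal. Every comparison of the set that uses those inputs is therefore given as values and ranges, and no test of it is used. Just inside the threshold lay Gm27032 with a mean of 50.5 and 2610035D17Rik with 50.2, and just outside it Gm13632 with 50.0 and Gm48799 with 49.8.

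The series studied mice that lack PCIF1, the enzyme that methylates the N6 position of a 2′-O-methylated adenosine when that base is the first transcribed nucleotide of a capped RNA, giving m6Am. A small Cas9 deletion at exon 15 and intron 16, made in B6D2F1/J embryos, removed the catalytic NPPF residues and led to a premature stop, and founders were crossed to C57BL/6J. Brain lysates of adult WT and Pcif1 knockout (KO) mice gave 12 libraries, with 3 inputs (RNA of the lysate) and 3 ribosome footprints (RNA left after RNase I digestion) per genotype. Adult testes gave 12 further libraries of m6Am-Exo-Seq, which enriches methylated 5′ ends with an antibody to m6A, with 3 inputs and 3 immunoprecipitates (IP) each from heterozygous (HET) and KO mice. No label says whether the libraries of a group come from separate animals, so p-values reflect the scatter among these samples, which may be technical. The other 18 samples of the series, RNA-seq of whole tissues, were not analysed here.

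LincRNAs have varied lives in the cell. Some stay in the nucleus, where they build or sit in nuclear bodies, some are processed into microRNAs, and some act in the cytoplasm. Ribosomes occupy messenger RNAs while they translate them, so an RNA that is rarely on ribosomes leaves few ribosome footprints relative to its amount in the lysate. Footprinting of this kind counts any RNA fragment that survives digestion and clean-up, whichever particle protected it.

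PCIF1 acts on RNAs that begin with adenosine, so the first transcribed base is of interest for each lincRNA. RefSeq (GRCm38.p6) matched 44 of the 91 by symbol, of which it files 38 as lncRNA, 4 as protein-coding and 2 as pseudogenes. It gave a start window for 33. The sequences below are those of lincRNAs that the results turn on, shown for the base at which transcription starts. Each runs 5′ to 3′ on the transcribed strand, with 15 bases before the start and the first transcribed base in capitals.
Malat1 (chr19:5802658-5802687, minus strand): ctccgggctctgcgtCaggcattcaggcag
Bc1 (chr7:144914455-144914484, plus strand): caagtgctagcgttcGgggttggggattta
Meg3, first start (chr12:109540981-109541010, plus strand): acccagccagcccctAgcacagaagacgaa
Meg3, second start (chr12:109545383-109545412, plus strand): gggtggggggtggggGgaaagccaggttgt
B230208H11Rik (chr10:12923113-12923142, minus strand): ctctttctccggaacCtccttccggcatgt
6330403K07Rik (chr11:71033603-71033632, minus strand): cctctgcaacaggctGtgggcggaaaggag
Miat (chr5:112228934-112228963, minus strand): gaggctcgcagtagcCcctttgtgaggcgc
Gm9866 (chr12:27160502-27160531, minus strand): agctggggaagagacAgttaaagcttccac
9330102E08Rik (chr6:128183789-128183818, minus strand): caggctgatgccaccAagtggtgaaaaatg
Adenosine was the first base of 13 of the 33 lincRNAs with a window, or 39.4%, against 35.4% of the 27025 genes of the table with a window. Annotated starts can lie away from the base used in these tissues, and no start was measured here.

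Several of the lincRNAs carry microRNAs. In RefSeq, 9 of the 91 span microRNA hairpins, and 3 of these, Gm3764 (Mir9-1), C130071C03Rik (Mir9-2) and Mir9-3hg (Mir9-3), span the 3 genes of miR-9, a microRNA of neural progenitors and neurons. All 3 loci give the same mature 5p strand, shown with its seed (bases 2 to 8) in capitals.
miR-9-5p: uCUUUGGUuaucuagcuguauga
The libraries count long RNA fragments and footprints, and mature microRNAs were not measured.

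The brain libraries rested on an estimated 5528739 to 17443754 reads each, with KO input replicate 2 the shallowest. Genes with the biotype of ribosomal RNA made up 4.14% to 6.08% of the signal in inputs and 48.7% to 73.8% in footprints. The lowest footprint share was that of WT replicate 1, where AY036118, filed as lincRNA and not counted, held 6042890 of 23438800. Chi-square distances per gene put WT footprint replicate 2 farthest from the others of its group. They cover all genes and are not scaled for level. AY036118, with WT footprint signals of 6042890, 0 and 2813990, therefore weighs heavily in them. Pcif1 itself had an input signal of 253, 318 and 388 in WT and 254, 201 and 259 in KO; the deletion is small, so reads from the rest of the gene do not check the genotype. Summed neuron markers (9 genes) lay between 28093 and 30202 in WT inputs and between 26694 and 30856 in KO inputs. Summed oligodendrocyte markers (8 genes) lay between 19603 and 20774 in WT inputs and between 28999 and 31028 in KO inputs, and summed microglia markers (6 genes) between 871 and 958 and between 684 and 761. Summed astrocyte markers (6 genes) lay between 10889 and 12415 in WT inputs and between 13314 and 13729 in KO inputs. The ranges of oligodendrocyte, microglia and astrocyte markers do not overlap between genotypes, while those of neuron markers do.

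The 91 lincRNAs held 2.11% to 2.31% of the signal of the WT inputs, 2.73% to 3.85% of the KO inputs and 0.0589% to 0.12% of the footprints. Gm42418, Malat1, Bc1 and AL732506.1 made up 86.2% to 86.8% of their summed signal in WT inputs. At the other end, 40 of the 91 had a mean WT input below 100. Gm42418 lies in a region known to overlap the ribosomal RNA repeat, so its reads may be shared with ribosomal RNA and its values are uncertain. AY036118, kept out of the set, shows how such loci can behave: its footprint signal was 6042890, 0 and 2813990 in WT and listed at 0 in all 3 KO libraries.

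In KO brain, most lincRNAs with enough footprint signal to be judged were under-represented among ribosome footprints. The comparison of KO footprints with KO inputs used no library that chose the set. A gene was tested where 3 or more libraries reached a signal of 10, and 45 of the 91 lincRNAs reached this in footprint libraries alone, counting both genotypes. Of these 45, 39 were lower in KO footprints than in KO inputs (limma, Benjamini-Hochberg adjusted p below 0.05 over 15407 genes), 0 were higher and 6 did not pass. Among all genes tested, 29% were called lower and 25.5% higher, and among the 13957 of them that reached the filter in footprints alone, 23.7% and 28.2%. The median log2 difference, footprint minus input on log2(signal + 1), was -2.19 for the 45 lincRNAs and 0.06 for those 13957 genes. Scaled to library totals, the calls over all genes moved from 4475 lower and 3936 higher to 8729 lower and 1420 higher, and those of the 45 lincRNAs to 43 lower.

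The other 46 lincRNAs entered the test through their inputs alone, so that a lower footprint value was built in, and their calls and p-values are not used. Their fitted values ran from -8.78 to -2.36. All 3 KO footprints were listed at 0 for 17 lincRNAs, and all 6 footprints for 8; the fitted differences of these depend on the pseudocount and no fold is given for them. Over the whole set of 91 the median was -4.00, as a description.

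**Figure D1:**
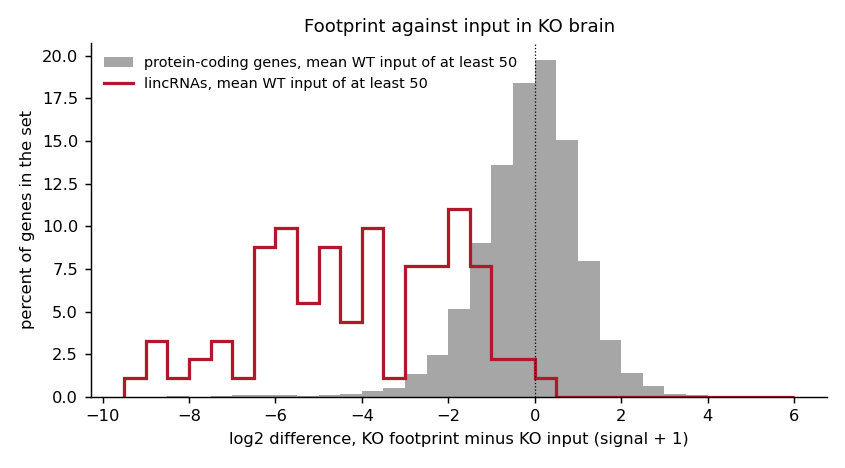
Distribution of the log2 difference between KO footprints and KO inputs (x axis, on log2(signal + 1)) as the percent of genes per bin (y axis), for 10034 protein-coding genes (grey) and the 91 lincRNAs (red line), all with a mean WT input of at least 50; values beyond the axis are in the end bins. The protein-coding genes centre on a median of -0.04, while the lincRNAs spread from -9.22 to 0.04 around -4.00. For 46 of the 91, tested through their inputs alone, a lower value was built in. The other 45 had a median of -2.19, against -0.03 for the 9963 protein-coding genes with the same footprint signal.

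Other genes above the same input threshold, and with the same footprint signal, gave a scale for this. Of 9963 protein-coding genes, 2789 were lower in KO footprints, with a median of -0.03. Of 19 antisense RNAs, 14 were lower (median -1.17), and of 32 processed transcripts, another non-coding class, 22 were lower (median -1.82). Small nucleolar RNAs, which guide modification of ribosomal RNA in the nucleolus, had 68 of 84 lower and a median of -2.70. The classes were set side by side without a test between them.

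Among nuclear lincRNAs, Malat1, a component of nuclear speckles, had input signals of 86920, 77476 and 62582 in KO and footprint signals of 442, 1424 and 1392. All footprint values lay far below all inputs, and the log2 difference was -6.29 ± 0.45 (SE, n = 3 and 3; limma adjusted p = 4.87e-05), or 78.3 times lower. Neat1, the scaffold of paraspeckles, had KO inputs of 188, 187 and 224 and KO footprints of 0.964, 0.656 and 9.31 (-5.96 ± 0.69). It is one of the 46 that entered through their inputs, so it has no test. Gm26917 fell in footprints by less, with KO inputs of 1224, 1327 and 1528 and footprints of 121, 293 and 331 (-2.57 ± 0.37, limma adjusted p = 0.00114). It lies on chromosome 17, as do Gm42418 and AY036118. Whether its reads are shared with ribosomal RNA was not tested, so its values may be as uncertain as those of Gm42418.

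Miat and Rmst, both linked to neural differentiation, had scattered footprints. Miat had KO inputs of 494, 316 and 346 and KO footprints of 12.4, 280 and 67.3, so that replicate 2 came close to the inputs. Rmst had KO inputs of 137, 352 and 174 and KO footprints of 6.44, 197 and 0.564. In both, replicate 2 was the high footprint library. Rmst is one of the 46 and has no test; its log2 difference was -3.95 ± 1.62, and -5.90 without KO footprint replicate 2. Miat was at -2.58 ± 1.00 and did not pass (adjusted p = 0.0647). It passed without KO footprint replicate 2 (-3.65), with a pseudocount of 8 (-2.34), scaled to the library total (-3.38) or to protein-coding genes (-2.78), and in a model over the 12 brain libraries (-2.58). In a wider list of nuclear and chromatin-linked non-coding RNAs, which holds genes outside the set, 7 had enough footprint signal. Of these, 5 were lower and 0 higher. The lower ones were Malat1, Gm26917 and Gm42418, already in the set, and Firre and Kcnq1ot1 from outside it. Reads of Gm42418 and Gm26917 may be shared with ribosomal RNA.

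The RNAs with cytoplasmic roles did not share one ratio. Bc1 is a short RNA of dendrites made by RNA polymerase III and known as a repressor of translation. Its KO inputs were 32553, 50235 and 25552, and its KO footprints were 69.4, 34.9 and 76.5. This was the lowest value of the 91: the log2 difference was -9.22 ± 0.35 (adjusted p = 5.13e-06), or 597 times lower. The window above shows Bc1 starting at G, and RNA polymerase III transcripts of this kind carry no cap that PCIF1 could use. 2900097C17Rik had KO inputs of 3616, 2761 and 3482 and footprints of 176, 144 and 129, a narrow spread in both groups (-4.45 ± 0.16, adjusted p = 4.4e-06). Of 6 measured genes on a list of 10 non-coding RNAs with described cytoplasmic roles, 4 were lower and 1 was higher.

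**Figure D2:**
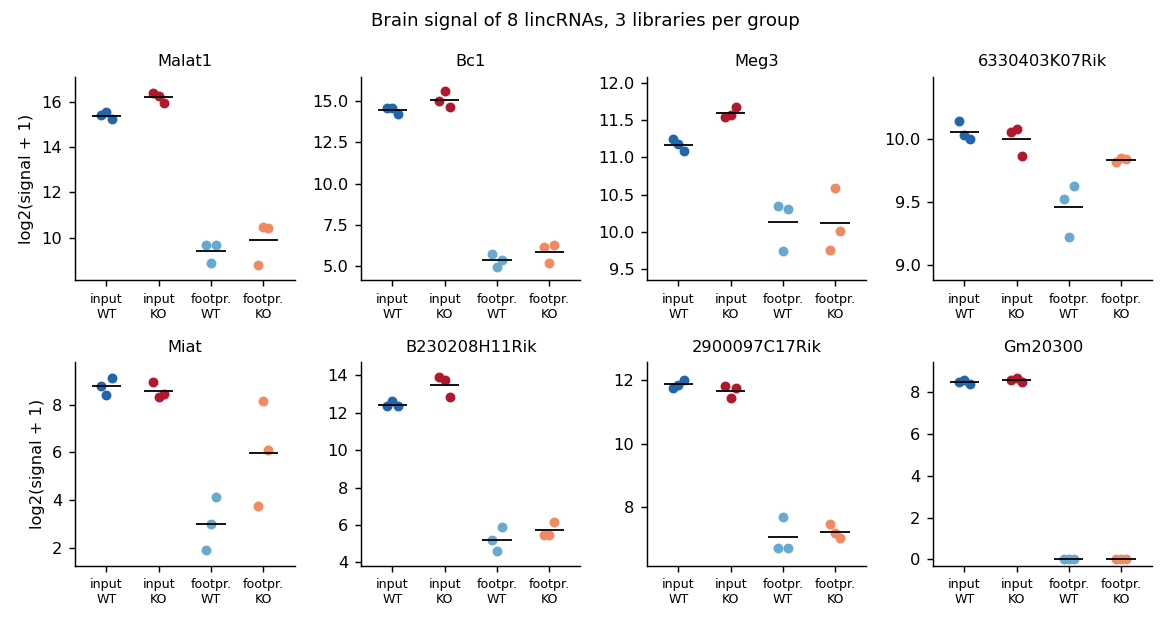
Signal of 8 lincRNAs in the 12 brain libraries (y axis, log2(signal + 1); with a separate scale in each panel), as 1 point per library with a line at the group mean, for inputs and footprints of WT and KO. Bc1 and Malat1 drop from inputs to footprints in both genotypes, 6330403K07Rik stays near its inputs, Miat spreads across KO footprints, and Gm20300 is listed at 0 in every footprint library.

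The imprinted Dlk1-Dio3 region gives the maternally expressed lincRNAs Meg3 and Mirg. Meg3 kept much of its signal in footprints: KO inputs were 2974, 3021 and 3271 and KO footprints 863, 1534 and 1031. The groups did not overlap, and the log2 difference was -1.48 ± 0.20 (adjusted p = 0.001), or 2.78 times lower. Mirg, the host of a large microRNA cluster in which RefSeq places 10 microRNA genes, had KO inputs of 47.2, 84.5 and 106 and footprints of 16.6, 33.5 and 39.8. Its difference was -1.38 ± 0.44 (adjusted p = 0.0333), and it did not pass when KO input replicate 2 or 3, or KO footprint replicate 1 or 2, was left out. Rian, of the same region but filed as a processed transcript, had KO inputs of 2927, 3336 and 2869 and footprints of 180, 204 and 169.

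The microRNA hosts did not share one ratio: Rmst, which spans 1 hairpin, was at -3.95, and Ftx, which spans 2, at -4.71, both without a test, while the hosts of miR-9 lay closer to 0. Mir9-3hg had KO inputs of 102, 107 and 109 and KO footprints of 28.8, 47.0 and 75.4 (-1.16 ± 0.35, adjusted p = 0.0277). C130071C03Rik, which spans Mir9-2, had KO inputs of 202, 171 and 201 and footprints of 87.8, 48.7 and 106 (-1.30 ± 0.30, adjusted p = 0.00955). Gm3764, which spans Mir9-1, was lower by a larger step, with inputs of 143, 123 and 147 and footprints of 9.42, 19.6 and 26.1 (-2.94 ± 0.38, adjusted p = 0.000721). The 3 hosts of one mature microRNA thus had ratios from -2.94 to -1.16, and the difference between them was not tested. The hosts of miR-124, the most familiar neuronal microRNA, gave -2.49 ± 0.29 for Mir124a-1hg and -1.92 ± 0.66 for Mir124-2hg (adjusted p = 0.00047 and 0.0438). They are called hosts by their names, and neither is among the lincRNAs found here to span a hairpin in RefSeq. The calls of Mir124-2hg and Mir9-3hg were lost without any 1 KO input library and without KO footprint replicate 2, and that of Mir124-2hg also with no filter on low values.

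Ftx, a non-coding RNA of the X-inactivation centre, had KO inputs of 87.9, 81.0 and 73.1 and footprints of 1.87, 4.65 and 0.857 (-4.71 ± 0.45). Like Pvt1, it is one of the 46 without a test. Xist was at most 1.90 in any brain library, and Ddx3y, a Y-linked gene, was at least 364 in each, the pattern of male tissue. Pvt1, the neighbour of Myc, had KO footprints of 10.5, 5.53 and 9.07 (-2.36 ± 0.31).

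The remaining lincRNAs at the low end are little studied. B230208H11Rik had KO inputs of 15534, 13565 and 7279 and KO footprints of 43.7, 43.6 and 71.6 (-7.78 ± 0.33, adjusted p = 6.75e-06). Gm12505 had inputs of 501, 2926 and 702 and footprints of 11.1, 0 and 0. Gm20300 had inputs of 388, 414 and 362 and was listed at 0 in all 3 footprints, as were Gm29562 with inputs of 410, 372 and 339 and Gm47916 with 184, 1017 and 148. In Gm12505 and Gm47916, input replicate 2 stood far above the other 2 inputs. Gm12505, Gm20300, Gm29562 and Gm47916 are among the 46 without a test, for which a lower footprint value was built in.

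Among lincRNAs that passed, the mildest difference was that of Tmem250-ps, at -0.97 ± 0.20 (adjusted p = 0.00591). RefSeq files Tmem250-ps as protein-coding. Next were Gm10419 at -1.11 ± 0.16, Mir9-3hg and C230004F18Rik at -1.19 ± 0.22.

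6330403K07Rik had nearly as much signal in footprints as in inputs on the deposited scaling. Its KO inputs were 1057, 1079 and 929 and its KO footprints 899, 921 and 913. The difference was -0.16 ± 0.09 and did not pass (adjusted p = 0.182), but it was called lower when scaled to the library total (-0.99) or to protein-coding genes (-0.37). RefSeq files this gene as protein-coding, so the biotype in the deposited table and that of RefSeq differ for it. Of the other 2 genes that RefSeq files as protein-coding, Gm46430 was at -2.31 ± 0.24, so a protein-coding label did not go with a high ratio in each case. Dbpht2 was at -7.37 ± 0.47, but it is one of the 46 without a test, with KO footprints of 0, 1.49 and 2.32.

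The other lincRNAs that did not pass were Gm9866 (0.04 ± 0.30), B230209E15Rik (-0.34 ± 0.25), 2610035D17Rik (-0.61 ± 0.57) and Gm37494 (-1.95 ± 0.75). Gm9866 had KO inputs of 81.6, 49.3 and 75.4 and KO footprints of 54.2, 90.0 and 67.9, groups that overlap. It was the only lincRNA of the 91 with a value above 0. B230209E15Rik had inputs of 120, 102 and 110 and footprints of 78.3, 121 and 68.7, which also overlap. In Gm37494, KO input replicate 1, at 33.5 against 236 and 243, lay apart, and without it the value was -2.88 and passed. Gm37494 also passed when scaled to the library total (-2.75) or to protein-coding genes (-2.15), and B230209E15Rik when scaled to the library total (-1.16).

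**Figure D3:**
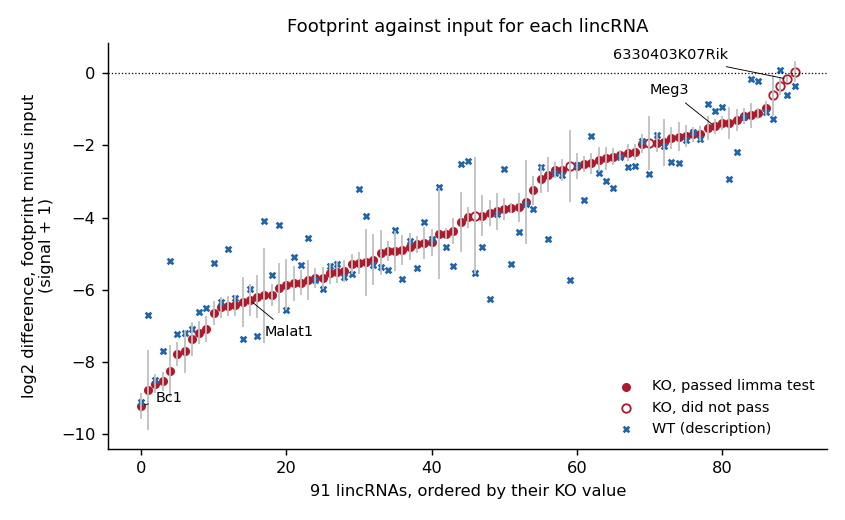
Log2 difference between footprints and inputs (y axis, on log2(signal + 1)) for each of the 91 lincRNAs, ordered by their KO value (x axis). Red points are KO with standard errors (filled where the limma value passed the threshold, open for the 7 that did not; 46 of the 91 have no usable test) and blue crosses are WT; Bc1 is lowest at -9.22 and Gm9866 highest at 0.04.

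The same values in WT brain are a description. In 87 of the 91 lincRNAs all WT footprints lay below all WT inputs, and in 0 above them; over all genes these shares were 32.6% and 29.9%, and nothing is read from the counts. The median was -4.20, against -0.08 for all genes. Across the 91, WT and KO values had a Pearson r of 0.90 and a Spearman rho of 0.89. The points are genes, they share depth and abundance between genotypes, and no library is in both values. For the 8 with all footprints listed at 0, both values follow from the inputs alone. The 46 with little footprint signal are included, and no correlation was taken without them. Bc1 was at -9.10 ± 0.22 in WT, Malat1 at -5.97 ± 0.24, Meg3 at -1.04 ± 0.18 and 6330403K07Rik at -0.60 ± 0.14.

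No lincRNA passed the test of KO footprints against WT footprints, a comparison that did not use the inputs. Of the 91, 45 had enough footprint signal, 0 were called in either direction by limma, and 3 had an unadjusted p below 0.05 (Gm42418, Miat and 6330403K07Rik). Over all 14377 genes tested, 0.223% were called and 10.8% had an unadjusted p below 0.05. The median log2 difference, KO minus WT, was 0.19 for the lincRNAs and 0.01 for all genes. The lowest adjusted p was 0.425.

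The spread within groups differed among those 3. Gm42418 had footprints of 22531, 4784 and 14739 in WT and 4728, 4182 and 3497 in KO. All KO values lay below all WT values, and the difference was -1.51 ± 0.51. 6330403K07Rik had footprints of 736, 597 and 788 in WT and 899, 921 and 913 in KO, also without overlap, at 0.37 ± 0.15 (adjusted p = 0.442). Miat had 2.79, 7.03 and 16.7 in WT against 12.4, 280 and 67.3 in KO, at 2.97 ± 1.10 (adjusted p = 0.44), with overlapping groups. Malat1 footprints were 823, 475 and 827 in WT and 442, 1424 and 1392 in KO (0.48 ± 0.47), and Meg3 footprints 1298, 859 and 1264 against 863, 1534 and 1031 (-0.02 ± 0.26). Both overlap.

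One library bore on this comparison. Without WT footprint replicate 2, 3 lincRNAs were called: Gm42418 at -2.15 (adjusted p = 0.0108), Gm10076 at -1.91 (adjusted p = 0.0368) and 1700020I14Rik at 2.47 (adjusted p = 0.0334). The calls over all genes then numbered 459 higher and 477 lower, against 21 and 11 with it. 1700020I14Rik had WT footprints of 55.6, 207 and 19.5 and KO footprints of 231, 173 and 167, and Gm10076 had 279, 51.8 and 184 against 39.3, 79.2 and 67.3. In each of these 3, replicate 2 is the WT library nearest to the KO values.

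The amounts of lincRNAs in the inputs of KO and WT brain are a description, since the WT inputs chose the set. The median log2 difference was 0.07, and 0.02 over all genes. In 16 lincRNAs all KO inputs lay above all WT inputs, where 10.6% of all genes did so, and in 9 all lay below, where 7.84% did. Nothing is read from these counts.

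Rmst had the widest gap, with inputs of 66.5, 59.5 and 40.4 in WT and 137, 352 and 174 in KO (1.88 ± 0.37). B230208H11Rik had 5171, 6337 and 5245 against 15534, 13565 and 7279 (1.05 ± 0.27). Gm45090 had 134, 102 and 104 against 192, 244 and 248 (1.00 ± 0.17). On the other side, Gm9866 had 106, 135 and 190 against 81.6, 49.3 and 75.4 (-1.05 ± 0.28), and Gm48275 had 56.5, 75.7 and 58.2 against 45.2, 33.4 and 20.0 (-0.99 ± 0.32). In each of these 5 the genotypes do not overlap.

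The 2 nuclear-body RNAs lay on opposite sides. Malat1 inputs were 43478, 47229 and 38735 in WT and 86920, 77476 and 62582 in KO (0.80 ± 0.15), and Neat1 inputs were 423, 327 and 365 in WT and 188, 187 and 224 in KO (-0.89 ± 0.14). Neither pair of groups overlaps. Paraspeckle proteins, which bind Neat1, had 0 of 8 genes called in inputs and 0 of 8 in footprints of KO against WT. Over all genes these shares were 0.255% and 0.223%, so nothing is read from the 0 calls.

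The 3 hosts of miR-9 also differed in side. Mir9-3hg inputs were 65.1, 60.4 and 57.6 in WT and 102, 107 and 109 in KO (0.79 ± 0.14), C130071C03Rik inputs 236, 270 and 208 against 202, 171 and 201 (-0.31 ± 0.14), and Gm3764 inputs 193, 143 and 160 against 143, 123 and 147 (-0.25 ± 0.16). Mir124-2hg was lower in KO (183, 262 and 313 against 156, 129 and 106) at -0.93 ± 0.23, while Mir124a-1hg overlapped (225, 223 and 176 against 232, 217 and 221). Meg3 inputs were 2415, 2317 and 2171 in WT and 2974, 3021 and 3271 in KO (0.42 ± 0.08), and Bc1 inputs 24749, 24545 and 19030 against 32553, 50235 and 25552 (0.62 ± 0.25).

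Other values moved with genotype in the same inputs. The summed oligodendrocyte, astrocyte and microglia markers given above differ between the groups without overlap. Of these genes, 1 of 8 oligodendrocyte markers was called higher (median 0.41), 0 of 6 astrocyte markers were called (median 0.09) and 0 of 6 microglia markers were called (median -0.29). Over all genes, 0.255% were called in these inputs. The part of these markers in the lincRNA values was not tested. In bulk tissue, fewer cells of a type and less RNA per cell cannot be told apart.

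**Figure D4:**
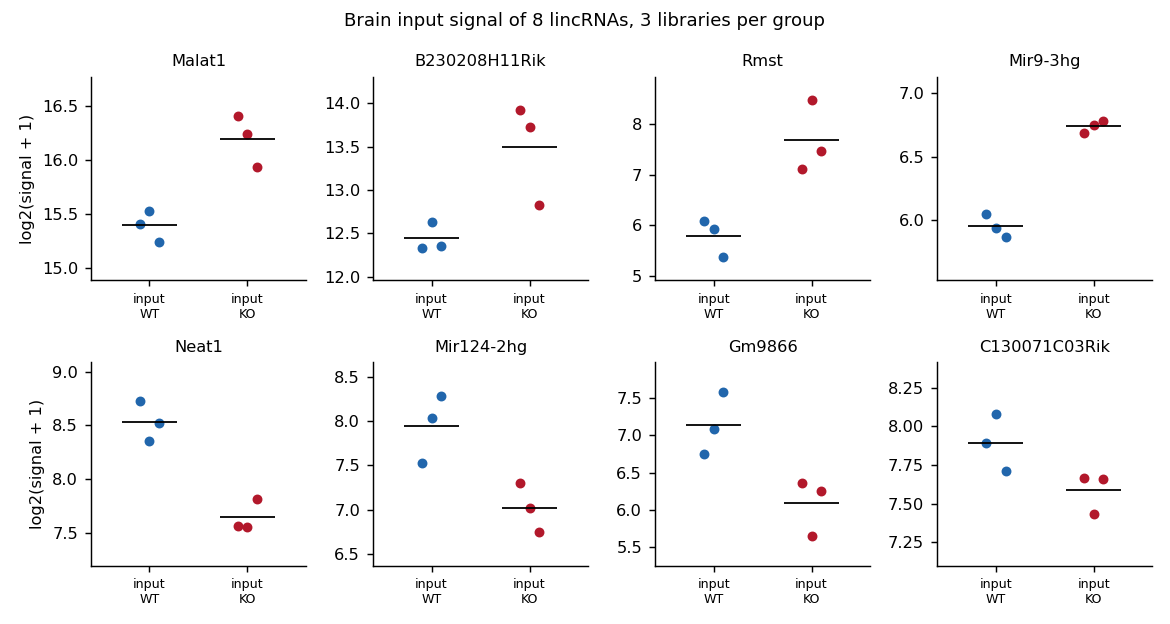
Input signal of 8 lincRNAs in brain (y axis, log2(signal + 1), with a separate scale in each panel that does not start at 0), 3 WT and 3 KO libraries as points with a line at the group mean. In the upper panels all KO points lie above all WT points, as for Malat1 at a difference of 0.80, and in the second line of panels under them, as for Neat1 at -0.89.

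Machinery that degrades or retains non-coding RNA was looked at in the same libraries. Of 15 measured nonsense-mediated decay factors, 0 were called between genotypes in inputs and 0 in footprints, and the same counts held for 16 nuclear exosome genes. Over all genes, 0.255% were called in inputs and 0.223% in footprints, so nothing is read from these counts. In KO footprints against inputs, where 25.5% of all genes were higher and 29% lower, 7 of 15 decay factors were higher and 2 lower, 4 of 16 exosome genes were higher and 3 lower, and all 8 paraspeckle protein genes were higher. The exosome share is close to that of all genes. The paraspeckle count was not particular to that list. Of the cell type markers, 8 of 8 oligodendrocyte, 5 of 6 astrocyte, 7 of 9 neuron and 3 of 6 microglia genes were higher. In these lists 0 were lower, as in those of endothelium (3 of 5 higher), choroid plexus (1 of 5) and hypothalamus and pituitary (2 of 4). Blood markers had 3 of 5 higher and 2 lower, and Y-linked genes 1 of 4 higher and 1 lower. Small nucleolar RNA host genes, spliced non-coding RNAs known to be degraded after ribosomes engage them, have no gene in the set; of 11 with enough footprint signal, 8 were lower in KO footprints and 0 higher, with a median of -1.43.

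The change of the footprint-to-input ratio between genotypes uses the WT inputs too and is given without a test. Its median was 0.02 over the 91, with values from -3.04 to 3.15, and -0.00 over all genes. Gm42418 was at -2.04 ± 0.67, 6330403K07Rik at 0.43 ± 0.17 and Meg3 at -0.44 ± 0.29.

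Testes gave a separate look at the brain lincRNAs, in a tissue and assay that took no part in choosing them. The table of that experiment lists 59 of the 91, and 23 had enough signal to be tested for enrichment. The 12 libraries held 1816831 to 6574479 reads. In HET testes, 7 of the 23 were higher in the IP than in the input and 3 were called lower (limma adjusted p below 0.05), 1 of which, 9330102E08Rik, entered through its inputs alone, where 14.7% of 12387 genes were higher and 15.4% lower. The median was 0.13, against 0.02 for all genes.

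AC165953.2 was enriched most, with HET inputs of 11.1, 8.31 and 10.4 and HET IPs of 26.9, 35.9 and 23.2 (1.43 ± 0.32, adjusted p = 0.00339). Malat1 rose from inputs of 507, 377 and 388 to IPs of 1099, 1177 and 856 (1.30 ± 0.23, adjusted p = 0.000495). Neat1 rose from 168, 260 and 219 to 512, 544 and 483 (1.27 ± 0.27, adjusted p = 0.00263). The RefSeq start of Malat1 shown above is C. The antibody binds m6A as well as m6Am. Also higher were Gm7292 (1.14), Gm9866 (1.05), which starts with A in RefSeq, Gm10076 (0.96) and 2900097C17Rik (0.84). The call of Gm10076 was lost without any 1 of HET inputs 1 to 3 and without HET IP replicate 2 or 3.

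The 3 lincRNAs with lower values in the IP were 9330102E08Rik, Gm42418 and Gm26917. 9330102E08Rik went from 14.2, 12.01 and 18.3 to 4.48, 1.96 and 2.68 (-2.0 ± 0.51); no IP library of it reached 10, so a lower value was built in and its p is not given. Its annotated start is A. Gm42418 went from 10698, 9453 and 10374 to 5972, 2021 and 3107 (-1.60 ± 0.28, adjusted p = 0.000546). Gm26917 fell by 0.60 on the log2 scale (limma adjusted p = 0.0188), and its call was lost without HET input replicate 1 or HET IP replicate 3. The limits given above for the reads of Gm42418 and Gm26917 in brain hold here too.

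The enrichment changed with genotype for 1 of the 23, where 3.72% of all genes were called higher in KO and 6.25% lower. This was AC165953.2, with KO inputs of 8.86, 8.25 and 15.5 and KO IPs of 135, 88.1 and 89.2. Its IP signal in KO lay above all HET values while its inputs overlapped, and the difference in enrichment was 1.74 ± 0.45 (adjusted p = 0.0253). It did not pass when HET input replicate 1 or 3, KO input replicate 1 or 2, HET IP replicate 3 or KO IP replicate 1 was left out, with values from 1.54 to 1.70. Malat1 had KO IPs of 491, 859 and 898, and its difference of -0.70 ± 0.32 did not pass (adjusted p = 0.178).

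**Figure D5:**
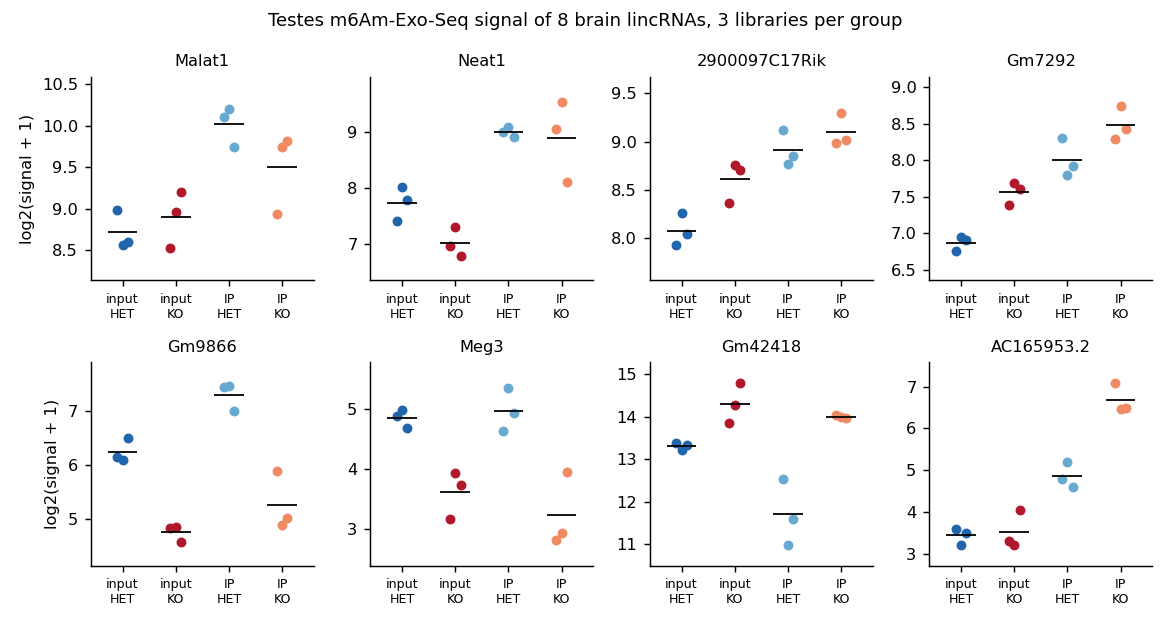
Testes m6Am-Exo-Seq signal of 8 of the lincRNAs (y axis, log2(signal + 1), with a separate scale in each panel), 3 libraries per group as points with a line at the group mean, for inputs and IPs of HET and KO. AC165953.2 has its KO IP points, at a signal of 88.1 to 135, above all others, and Gm9866 has its KO inputs under its HET inputs.

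In testes inputs, 6 of 21 lincRNAs tested differed between KO and HET. Lower in KO were 3, where 6.01% of 11278 genes were lower, and higher were 3, where 3.32% were higher. Gm9866 fell from 69.6, 67.4 and 90.0 in HET to 27.5, 27.7 and 22.9 in KO (-1.50 ± 0.19, adjusted p = 0.000846). Meg3 fell from 28.5, 30.5 and 24.7 to 7.98, 14.2 and 12.3 (-1.24 ± 0.29, adjusted p = 0.0189), with KO values close to the filter's 10, and Neat1 from 168, 260 and 219 to 124, 156 and 109 (-0.72 ± 0.17, adjusted p = 0.0177). Gm42418 rose by 0.99 ± 0.16 (adjusted p = 0.00334), Gm7292 by 0.69 ± 0.13 (adjusted p = 0.0057) and 2900097C17Rik by 0.54 ± 0.12 (adjusted p = 0.0178).

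Only the call of Gm9866 was kept in each refit of that comparison, and a model over all 12 testes libraries called only it. That model called 10 genes of the whole table higher and 15 lower, against 374 and 678 in the main fit. Gm42418 and Gm7292 lost their calls only in that model. Meg3 did not pass without any 1 HET input. Neat1 did not pass without HET input replicate 2 or 3 or KO input replicate 3, nor 2900097C17Rik without HET input replicate 1 or 3 or KO input replicate 2 or 3. Set beside the brain inputs, Gm9866 was at -1.05 in brain and -1.50 in testes and Neat1 at -0.89 and -0.72, both lower in KO in each tissue, while Meg3 was at 0.42 in brain and -1.24 in testes. The tissues share no library, the control genotypes differ (WT and HET), and the difference between tissues was not tested.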

How the data were processed

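The authors deposited 1 table per experiment, whose values are signal: reads per gene divided by a library factor, with no length term. Salmon 0.12.0, STAR, DESeq, DESeq2 1.25.10 and R 3.6.2 are named in the submitters' processing notes, without their roles; the genome build, annotation, filters and use of strand were not given in the sources used here. The brain values were not all whole multiples of 1 read, so no count model was used on them; the testes values gave whole reads for 100% of values within 0.01 of a read. The authors' deposited brain table also holds log2 fold changes and adjusted p-values, which are not used here. Reads of overlapping or near-identical genes may be split or shared.

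Each comparison was fitted with limma 3.58.1 (trend, R 4.3.3) on log2(signal + 1), over every gene that reached a signal of 10 in 3 or more of the libraries fitted, with Benjamini-Hochberg adjustment over all genes tested and a threshold of 0.05. Brain comparisons used 6 libraries each, the genotype change of the ratio 12, testes enrichment 12 and testes inputs 6. Fold changes on this scale understate changes of low genes. The steps were tested on simulated data. edgeR 4.0.16 on the recovered testes reads was an added alternative.

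The set, the lists and the tests were chosen with earlier results of these data known. Named were members of the role lists, the 6 highest and 6 lowest called values in KO footprints against inputs, any called in footprints of KO against WT, the 5 widest non-overlapping input differences, the 2 genes on each side of the threshold and the 3 largest called values of 2 testes comparisons. Genes named beyond this were chosen after their values were seen. The 6 lowest called values were taken over all 91, including lincRNAs that entered through their inputs alone and whose calls are not used.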

Additional observations from a re-analysis of the deposited data

Results flagged for a closer look

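The enrichment of AC165953.2 in testes IPs differed between HET and KO by 1.74 on the log2 scale (limma, adjusted p = 0.0253, by the interaction of genotype and IP). Its signal in the IP was higher in 3 of 3 KO libraries than in any HET library, and its input signal overlapped between genotypes. Input signal was low, at 8.25 to 15.5, which limits the precision.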

How the results depend on the processing

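No paired analysis was possible because the labels carry no replicate numbers. In KO footprints against inputs, the count of lincRNAs called stayed between 79 and 89 of 91 under each alternative that kept the set, a count that includes the 46 tested through their inputs alone; of the 45 others it was 35 to 43, with 35 without KO input replicate 2 or 3. With a set threshold of 25 it was 136 of 152 and with 100 it was 46 of 51, which follows from the size of the set. Its median moved to -2.76 with a pseudocount of 8 and to -4.76 with scaling to the library total; that scaling moved the median of all genes from -0.07 to -0.91 and the calls over all genes from 3936 higher and 4475 lower to 1420 and 8729, and scaling to protein-coding genes gave -0.28, 3106 and 5414. For WT footprints against inputs the median was -2.83 with a pseudocount of 8 and -5.23 with the library total. It was -3.55 and -3.51 with thresholds of 25 and 100, where 135 of 152 and 47 of 51 were called lower. Over all genes 27.4% were called lower and 24.9% higher. The WT inputs chose the set, so these calls are not a test and nothing is read from them. Leaving out each library in turn gave 0 to 3 lincRNAs called in footprints of KO against WT. It gave 0 to 3 in the genotype change of testes enrichment and 3 to 6 in testes inputs. The genotype change of the brain ratio leaned on WT footprint replicate 2. Without it, 434 genes of all 16527 were called higher and 438 lower. The genotype change of testes enrichment had 2 called with a pseudocount of 8, 0 with no filter, 2 with a threshold of 25 and 0 with 100. Testes inputs had 1 called in a 12-library model, where the calls over all genes fell from 374 higher and 678 lower to 10 and 15. The testes alternatives on pseudocount, protein-coding scaling, model and threshold, and edgeR, were chosen after seeing the data; edgeR gave the same counts of calls as limma. No called value changed sign, while uncalled values of single genes did so 27 times in footprints of KO against WT, 5 times in KO footprints against inputs, 3 in testes enrichment and 6 in testes inputs. Where a cause is not given, the cause was not tested. Footprint signals under 10 limit what can be seen of 46 of the 91.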
